A study of Homo sapiens with 5 samples.

Results

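The class II histone deacetylases were followed through a small RNA sequencing series on HDAC6 in TOV21G, an established cell line from a human ovarian clear cell carcinoma. The 6 genes were taken by symbol from the 28442 gene rows of the deposited table, and each symbol matched a single row. They are the class IIb enzymes HDAC6 and HDAC10 and the class IIa enzymes HDAC4, HDAC5, HDAC7 and HDAC9. All 5 libraries come from TOV21G cells grown in serum-containing medium. They are shHDAC6 (infected with a virus carrying a short hairpin RNA against HDAC6), ACY1215 and CAY10603 (each a small-molecule HDAC6 inhibitor), shControl (a control hairpin) and the drug vehicle. The labels group shHDAC6, ACY1215 and CAY10603 as repressed HDAC6 and shControl and vehicle as control. Infected cells were selected with puromycin, whereas the drug libraries carry no such step in the labels, so each experiment has its own control. The labels name a pair of HDAC6 hairpins without saying which was sequenced, and the labels state neither doses nor times. By its title, the series is about the dependence of ovarian cancers with mutated ARID1A on HDAC6.

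Zinc-dependent deacetylases remove acetyl groups from lysines and fall into classes by sequence. HDAC6 works mainly in the cytoplasm, carries a pair of catalytic domains and a ubiquitin-binding zinc finger, and deacetylates tubulin, cortactin and HSP90. HDAC10, its closest relative, is known as a polyamine deacetylase. Class IIa enzymes have weak catalytic activity of their own. They bind MEF2 transcription factors and corepressor complexes in the nucleus, and kinases such as the SIK family send them to the cytoplasm by creating docking sites for the YWHA proteins. Inhibitors act on the protein, so a transcript level does not measure their effect on enzyme activity.

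There was 1 library a treatment, and depth ran from 43498805 counts in vehicle to 57442767 counts in shControl. Of the clear cell carcinoma markers, 6 of 8 reached 1 CPM (counts scaled to a common library size by the TMM method) in at least 1 library, among them PAX8, while NAPSA and KRT7 stayed under 1 CPM in all 5. The summed marker level was 819, 750 and 702 CPM in shHDAC6, ACY1215 and CAY10603, against 918 CPM in shControl and 671 CPM in vehicle. Leukocyte, endothelial and muscle markers summed to at most 2.24, 0.518 and 0.518 CPM in any library. Fibroblast markers summed to 9.46 CPM in ACY1215 and to between 4.17 and 5.70 CPM in the others, with DCN and LUM under 1 CPM throughout. The part of these differences in the results was not tested.

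HDAC6 (Entrez 10013, X chromosome) was lower with the hairpin and with ACY1215, and stood near its controls with CAY10603. It had 1539 counts or 29.2 CPM in shHDAC6 (95% Poisson interval 27.8 to 30.7) and 2765 counts or 48.0 CPM in shControl (46.2 to 49.8). In ACY1215 it had 1730 counts or 33.2 CPM (31.6 to 34.8), in CAY10603 2330 counts or 48.2 CPM (46.3 to 50.2), and in vehicle 2276 counts or 51.1 CPM. The shHDAC6 and ACY1215 values lay below both controls and their intervals did not reach any other library, while CAY10603 lay between the controls. The epithelial marker EPCAM was at 39.7 and 29.6 CPM in shHDAC6 and ACY1215 and 65.7 CPM in CAY10603, against 59.7 CPM in shControl and 59.6 CPM in vehicle, and its part in the HDAC6 values was not tested. Of the 6 clear cell markers above 5 CPM, 5 were lower in shHDAC6 than in shControl and 5 higher in ACY1215 than in vehicle. EPCAM was the 1 marker lower in ACY1215. All 6 were higher in shControl than in vehicle, with a median log2 fold of 0.33, where that of all genes was 0.01. The part of this gap between controls in the marker counts was not tested. The HDAC6 intervals cover counting error only, and in bulk RNA fewer cells with the transcript and less RNA per cell cannot be told apart.

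**Figure D1:**
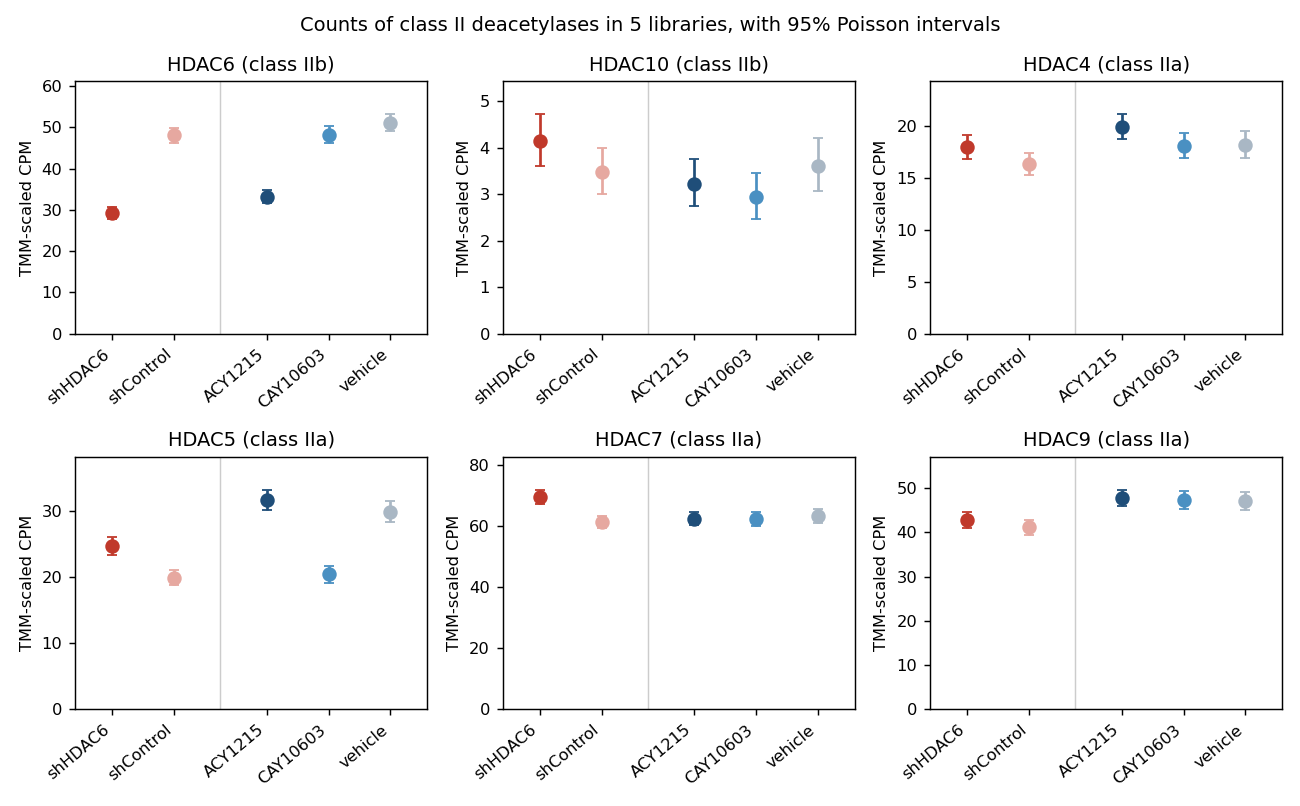
TMM-scaled CPM (y axis, from 0) of the 6 class II deacetylases in each of the 5 libraries (x axis), shRNA experiment left of the grey line and drug experiment right of it, bars being 95% Poisson intervals. HDAC6 is at 29.2 CPM in shHDAC6 and 33.2 CPM in ACY1215 and at 48.0 CPM or more in CAY10603, shControl and vehicle, and HDAC5 is at 31.7 CPM in ACY1215 and 20.4 CPM in CAY10603, against 19.9 CPM in shControl and 29.9 CPM in vehicle.

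In the hairpin pair the HDAC6 log2 fold of TMM-scaled CPM was -0.72 (exact binomial counting interval -0.81 to -0.63), a level 1.64-fold lower than in shControl. Only 103 of the 10741 genes averaging 5 CPM or more lay further down in that pair. In the ACY1215 pair the fold was -0.62 (-0.71 to -0.53), with 758 genes further down. For CAY10603 the fold was -0.08 (-0.17 to 0.00), with 2989 genes further down. At 1.5-fold or more, 1 of the 5 class II genes above 5 CPM was lower in shHDAC6 and 1 in ACY1215, HDAC6 each time, against a background of 2.20% and 7.76% of all genes. In CAY10603 0 of the 5 were past 1.5-fold lower, against 0.698% of all genes. At 1.5-fold or more higher there were 0 of 5 in each of the 3 pairs, against 2.82%, 5.86% and 0.344% of all genes in shHDAC6, ACY1215 and CAY10603. In either direction 5.02%, 13.6% and 1.04% of all genes were past that fold. Between the controls, shControl over vehicle, 0 of 5 were past it, against 3.94% of all genes lower, 2.79% higher and 6.73% either way. The lower bound in size of the ACY1215 interval lies inside 1.5-fold, so that counting error alone covers both sides of the threshold. Each pair holds 1 library a side and carries no test.

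CAY10603 and ACY1215 were compared by fold without a test, for description only, since their doses and times are unknown and may differ. HDAC6 was at 48.2 CPM in CAY10603 and 33.2 CPM in ACY1215, a log2 fold of 0.54 with a counting interval of 0.45 to 0.63. HDAC5 was at 20.4 CPM in CAY10603 and 31.7 CPM in ACY1215, a log2 fold of -0.63 (-0.75 to -0.52). It was the sole member at least 1.5-fold lower, against 4.47% of all genes, and 0 of 5 were that much higher, against 5.91% (10.4% either way). HDAC4, HDAC7, HDAC9 and HDAC10 differed between these libraries by log2 folds of -0.14, -0.01, -0.01 and -0.13, of which only the interval for HDAC4 (-0.27 to -0.01) left out 0.

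The pooled comparison asked whether any member moved over all 3 interventions, with experiment type as a covariate. The pooled log2 fold of HDAC6 was -0.50 ± 0.21 (SE; edgeR quasi-likelihood test, unadjusted p = 0.048, adjusted p = 1.00 over 13449 genes), with ACY1215 and CAY10603 sharing the vehicle library and CAY10603 lying between the controls. The hairpin of shHDAC6 is directed against HDAC6, so a lower value in that library was intended. HDAC6 was the 1 member of 6 with an unadjusted p under 0.05. Its p-value misses the threshold after adjustment, as does that of every gene: 0 of 13449 (0%) passed at 0.05, also with DESeq2 and limma-voom, and 100 (0.744%), 112 and 122 had an unadjusted p under 0.05. The HDAC6 fold stayed negative when any library was left out, from -0.33 without shHDAC6 or without shControl to -0.72 without vehicle. With experiment type as a covariate, these refits are not independent checks. Without vehicle the fold rests on shHDAC6 against shControl alone, where a lower value was intended. Without shHDAC6 or without shControl it rests on the same drug libraries. The 5 other members had pooled log2 folds between -0.02 (HDAC10) and 0.10 (HDAC4), with standard errors between 0.13 and 0.28 and adjusted p of 1.00 each. The labels name no repeated cultures, so these p-values measure only the spread between different treatments.

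**Figure D2:**
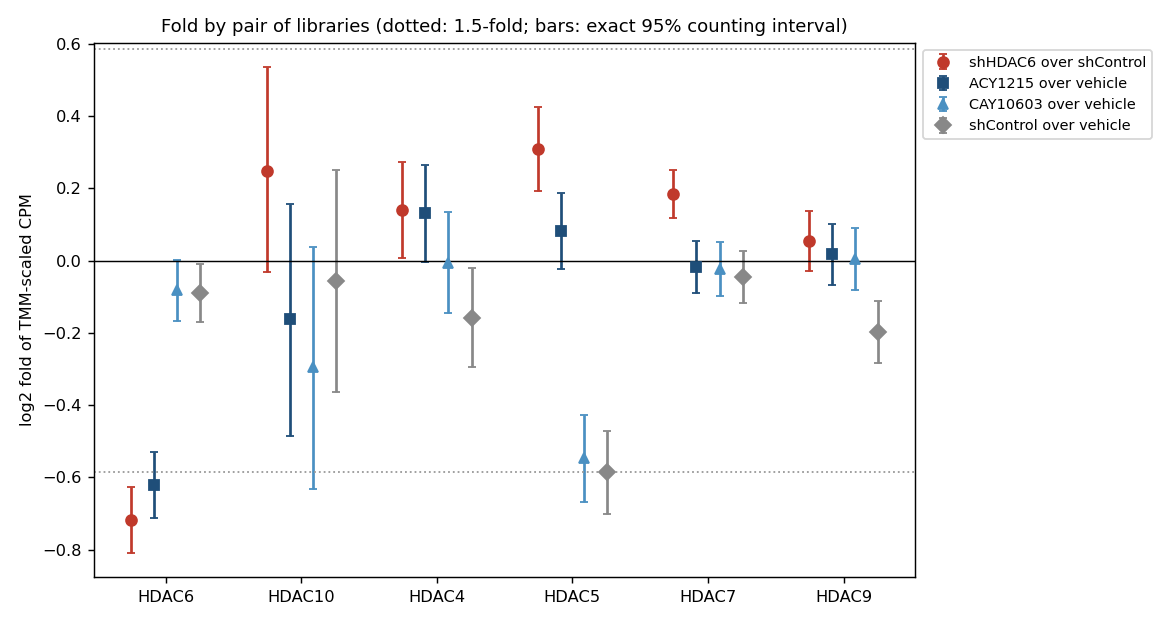
Log2 fold of TMM-scaled CPM (y axis) of each class II deacetylase (x axis) in the 3 pairs of intervention and own control and between the controls (grey), with exact 95% counting intervals and 1.5-fold as dotted lines. HDAC6 lies past 1.5-fold lower in shHDAC6 and ACY1215, and for HDAC5 the gap between the controls (-0.58) is as large as the CAY10603 fold (-0.55).

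Whether the hairpin and the drugs differed was tested as the knockdown effect minus the mean drug effect, with 1 residual degree of freedom. The HDAC6 difference was -0.39 ± 0.43 (SE; edgeR adjusted p = 0.967). HDAC5 had 0.51 ± 0.49 (SE) and HDAC10 0.48 ± 0.60 (SE), both at an edgeR adjusted p of 0.967. For HDAC4, HDAC7 and HDAC9 the differences were 0.08, 0.20 and 0.04, with edgeR adjusted p between 0.967 and 0.991. None of the 6 passed, against 1 of 13449 genes (0.00744%), and 0 of 6 had an unadjusted p under 0.05, against 2.55% of genes.

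HDAC10 (Entrez 83933, chromosome 22) was the scarcest member and the only one with a mean under 5 CPM. It had 218 counts (4.14 CPM) in shHDAC6 and 200 (3.47 CPM) in shControl, and 168 (3.22 CPM) in ACY1215, 142 (2.94 CPM) in CAY10603 and 161 (3.61 CPM) in vehicle. Its log2 folds were 0.25 (-0.03 to 0.54), -0.16 (-0.48 to 0.16) and -0.29 (-0.63 to 0.04) for shHDAC6, ACY1215 and CAY10603, so no difference was detectable at this depth. In the GENCODE 29 annotation HDAC10 overlaps MAPK12 on the same strand. The MAPK12 row held 1425 counts in shHDAC6, 995 in ACY1215, 823 in CAY10603, 1226 in shControl and 836 in vehicle, and how reads of the overlap were split is not stated in the labels. Its values are therefore uncertain.

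Among the class IIa genes HDAC5 (Entrez 10014, chromosome 17), a MEF2 corepressor studied in muscle and heart, varied most. It was at 24.7 CPM in shHDAC6 (23.3 to 26.0) and 19.9 CPM in shControl (18.8 to 21.1), a log2 fold of 0.31 (0.19 to 0.42). In the drug experiment it was at 31.7 CPM in ACY1215 (30.1 to 33.2), 20.4 CPM in CAY10603 (19.2 to 21.7) and 29.9 CPM in vehicle (28.3 to 31.5). The log2 folds were 0.08 (-0.02 to 0.19) for ACY1215 and -0.55 (-0.67 to -0.43) for CAY10603. In the CAY10603 pair 92 of 10741 genes lay further down than HDAC5, or 0.857%. The controls themselves differed as much, with 19.9 CPM in shControl and 29.9 CPM in vehicle, a log2 fold of -0.58 that is just inside 1.5-fold. The fold of HDAC5 therefore turned with the control library: against shControl it was 0.04 in CAY10603 and 0.67 in ACY1215, and against vehicle it was -0.28 in shHDAC6. The part of this gap between controls in the HDAC5 values was not tested.

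HDAC4 (Entrez 9759, chromosome 2), whose export from the nucleus is regulated by phosphorylation, was at 17.9 CPM in shHDAC6 and 16.3 CPM in shControl. It was at 19.9 CPM in ACY1215, 18.1 CPM in CAY10603 and 18.2 CPM in vehicle. Its log2 folds were 0.14 (0.01 to 0.27), 0.13 (-0.00 to 0.27) and -0.01 (-0.15 to 0.13) for shHDAC6, ACY1215 and CAY10603. In the hairpin pair the sign turned with the control, to -0.02 against vehicle.

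HDAC7 (Entrez 51564, chromosome 12), known for its part in endothelial cells and thymocytes, was the most even of the members. It stood at 69.7 CPM in shHDAC6 (67.5 to 72.0) and 61.4 CPM in shControl (59.4 to 63.4), and at 62.6, 62.3 and 63.3 CPM in ACY1215, CAY10603 and vehicle. Its log2 fold was 0.18 (0.12 to 0.25) in shHDAC6, the highest of the 5 libraries, and -0.02 in each drug. Against vehicle the shHDAC6 fold was 0.14. In the pair of shHDAC6 over shControl 24.1% of all genes lay higher than HDAC7, so its place among genes was ordinary. HDAC7 overlaps SLC48A1 on the opposite strand, and the labels do not state the strand setting of the counting.

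HDAC9 (Entrez 9734, chromosome 7), which is also made in shorter forms that lack the catalytic domain, was at 42.6 CPM in shHDAC6 and 41.1 CPM in shControl. It was at 47.7, 47.2 and 47.1 CPM in ACY1215, CAY10603 and vehicle. The 3 drug-experiment libraries thus lay above both shRNA libraries. Its log2 folds were 0.05, 0.02 and 0.00 for shHDAC6, ACY1215 and CAY10603, each with an interval that held 0, whereas shControl over vehicle gave -0.20 (-0.28 to -0.11).

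Over the 5 libraries the members differed in how much they varied. The standard deviation of log2 CPM was 0.37 for HDAC6 and 0.31 for HDAC5, larger than in 89.8% and 83.1% of the 10741 genes. For HDAC10 it was 0.18, close to the median over all genes of 0.18. It was 0.10 for HDAC4, 0.10 for HDAC9 and 0.07 for HDAC7, larger than in 16.1%, 14.8% and 6.15% of genes. The highest library over the lowest was 1.75 for HDAC6, 1.59 for HDAC5, 1.41 for HDAC10, 1.22 for HDAC4, 1.16 for HDAC9 and 1.14 for HDAC7. Scarce genes vary more through counting alone, which bears on HDAC10.

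**Figure D3:**
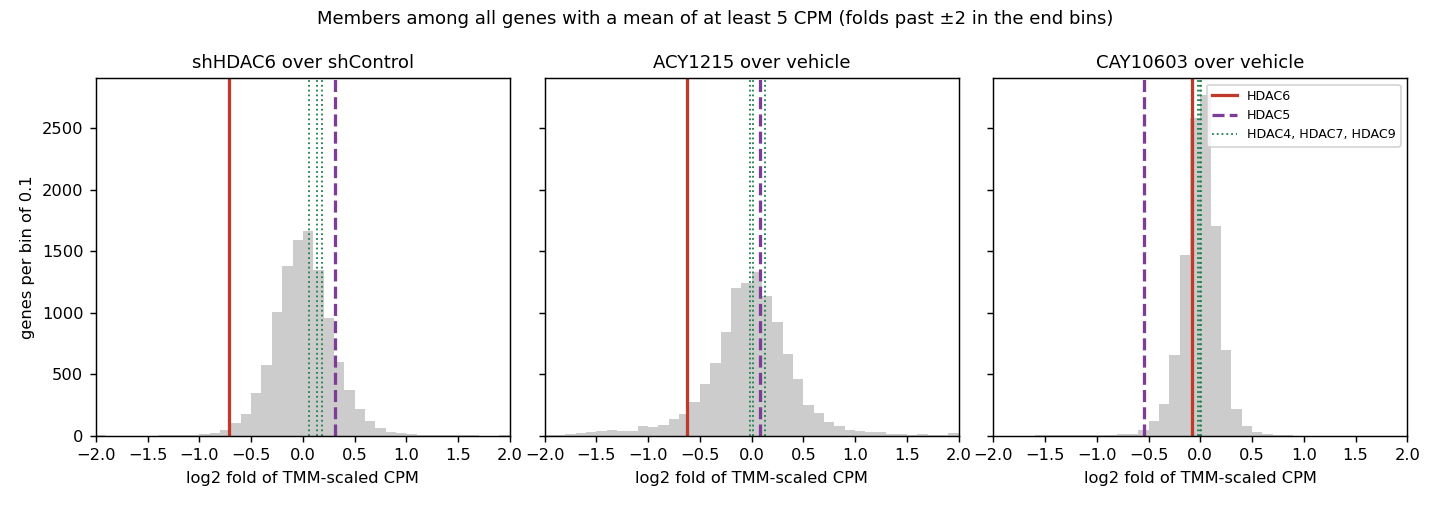
Number of genes per bin of 0.1 (y axis) by log2 fold of TMM-scaled CPM (x axis) for the 10741 genes averaging 5 CPM or more, 1 panel per pair, with HDAC6 (red), HDAC5 (dashed) and HDAC4, HDAC7 and HDAC9 (dotted) as vertical lines. HDAC6 stands in the lower tail for shHDAC6 (103 genes further down), less far out for ACY1215 (758) and in the body for CAY10603 (2989), where HDAC5 stands in the tail (92).

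Levels between members were compared per length, with the FPKM values (fragments scaled by transcript length and library size) that the authors deposited. HDAC7 was highest everywhere, with 41.3, 37.6 and 35.3 FPKM in shHDAC6, ACY1215 and CAY10603, against 38.0 FPKM in shControl and 40.4 FPKM in vehicle. HDAC6 had 10.1, 11.2 and 15.9 FPKM in shHDAC6, ACY1215 and CAY10603, against 17.1 FPKM in shControl and 16.7 FPKM in vehicle. HDAC9 had 12.01, 12.01 and 12.74 FPKM in the same 3 interventions, against 11.4 FPKM in shControl and 12.9 FPKM in vehicle. HDAC6 thus ranked 3 of 6, below HDAC9, in shHDAC6 and ACY1215, and ranked 2 in CAY10603, shControl and vehicle.

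HDAC5 ranged from 4.03 to 6.16 FPKM, HDAC4 from 2.58 to 3.06 FPKM and HDAC10 from 1.48 to 2.30 FPKM over the 5 libraries. These ranges did not overlap with each other, nor did that of HDAC7 (35.3 to 41.3 FPKM) with any. Only HDAC6 (10.1 to 17.1 FPKM) and HDAC9 (11.4 to 12.9 FPKM) overlapped, so their order depended on the library. HDAC6 made up 13.7%, 15.8% and 22.0% of the summed FPKM of the 6 members in shHDAC6, ACY1215 and CAY10603, against 22.7% in shControl and 20.6% in vehicle. The class IIa genes summed to 61.5, 58.2 and 54.8 FPKM in these interventions, against 56.1 FPKM in shControl and 62.3 FPKM in vehicle. Together the 6 class II genes held between 26.0% (shHDAC6) and 28.7% (vehicle) of the summed FPKM of all 11 zinc-dependent deacetylases, of which HDAC1 alone had 104 to 126 FPKM.

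**Figure D4:**
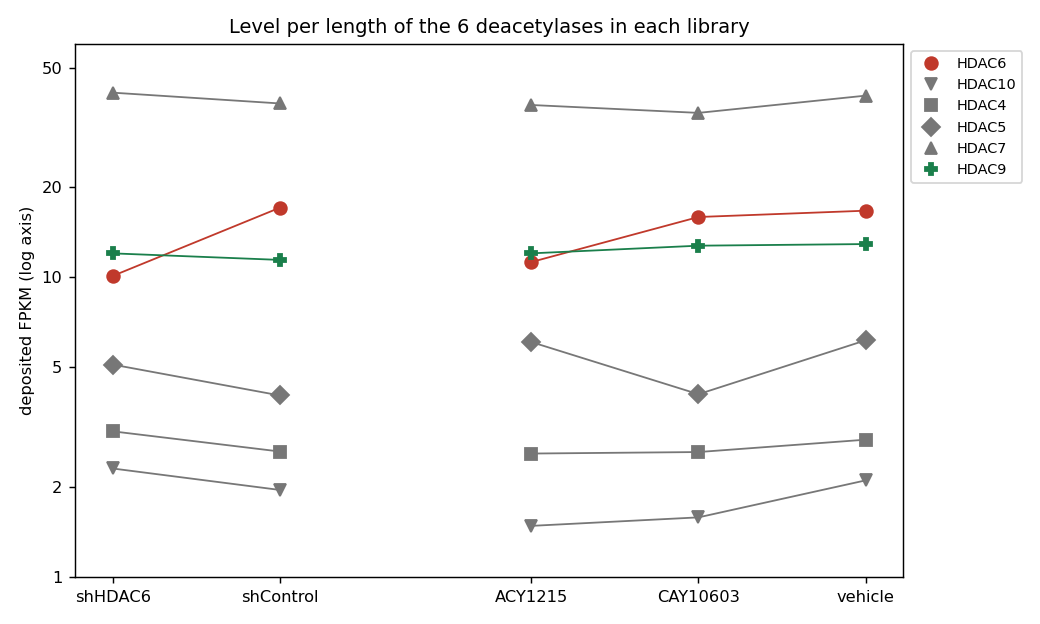
Deposited FPKM on a log axis (y) of the 6 class II deacetylases in each library (x), lines joining libraries of the same experiment. HDAC6 (red) lies below HDAC9 (green) in shHDAC6 (10.1 and 12.01 FPKM) and ACY1215 (11.2 and 12.01 FPKM) and above it in CAY10603, shControl and vehicle, while the other members keep their order.

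The deposited FPKM and counts did not always move together. The FPKM log2 fold of HDAC4 in ACY1215 was -0.15, on log2(FPKM + 0.1), where the count fold was 0.13. The median FPKM fold of all genes in that pair was -0.10, so that relative to it HDAC4 lay slightly lower by FPKM and higher by count. For HDAC10 in ACY1215 the FPKM fold was -0.48 and the count fold -0.16. HDAC6 had FPKM folds of -0.75, -0.57 and -0.07 in shHDAC6, ACY1215 and CAY10603, close to its count folds.

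The count per FPKM unit, scaled to the median gene of each library, depends on the transcript length behind the authors' FPKM. For HDAC4 it was 2.21 in shHDAC6 and 2.34 in shControl, and 2.75 in ACY1215, 2.58 in CAY10603 and 2.42 in vehicle, relative to a median gene of 1. The highest over the lowest was 1.25 for HDAC4, 1.18 for HDAC10, 1.11 for HDAC6 and 1.10 for HDAC7, larger than in 96.7%, 94.2%, 87.2% and 85.7% of genes, with a median over all genes of 1.02. It was 1.06 for HDAC9 and 1.03 for HDAC5. Among the other zinc-dependent deacetylases it lay between 1.01 (HDAC1) and 1.03 (HDAC8). Values per transcript were not analysed here, so which transcripts carry this spread was not tested.

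**Figure D5:**
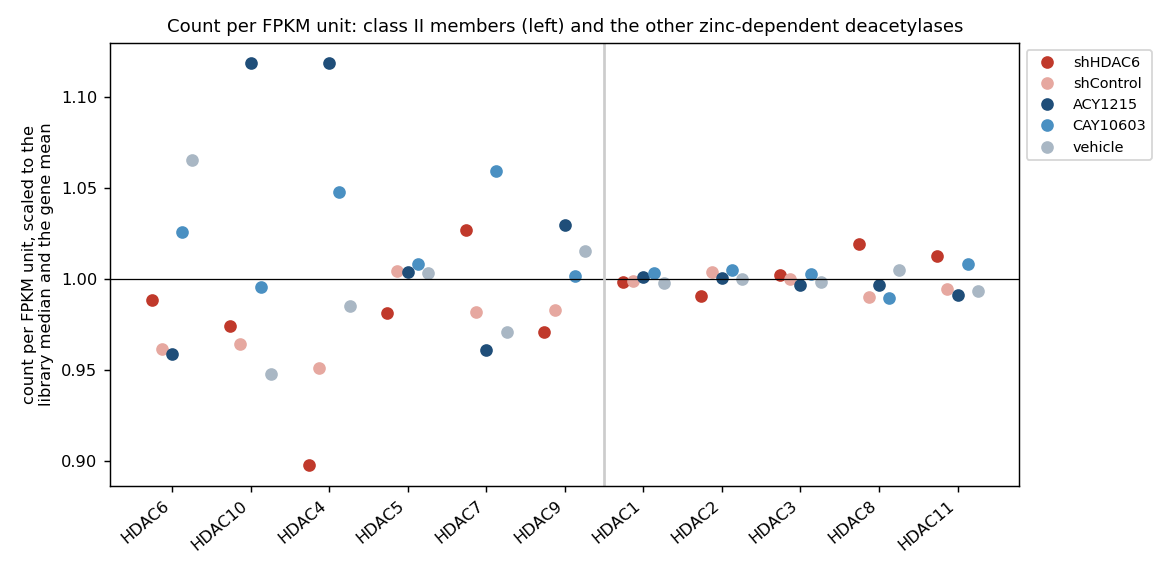
Count per FPKM unit (y axis, scaled to the median gene of each library and to the gene's mean over the 5 libraries, so without unit) for the class II members and, right of the grey line, the other zinc-dependent deacetylases (x axis), 1 point per library. HDAC4 spreads by a factor of 1.25 and HDAC10 by 1.18 between libraries, and HDAC1 by 1.01.

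Of the 5 other zinc-dependent deacetylases 0 were past 1.5-fold in shHDAC6, ACY1215 or CAY10603, against 5.02%, 13.6% and 1.04% of all genes. With 5 genes, 0 is near that background. HDAC8, a class I enzyme that acts on cohesin, was the lowest in the hairpin pair, with 31.4 CPM in shHDAC6 and 39.7 CPM in shControl, a log2 fold of -0.34. HDAC3, a class I enzyme of nuclear corepressor complexes, had log2 folds of 0.24, 0.29 and -0.04 in shHDAC6, ACY1215 and CAY10603. HDAC11, HDAC2 and HDAC1 had folds of 0.08, -0.17 and 0.17 in shHDAC6, of 0.27, 0.23 and -0.05 in ACY1215, and of 0.17, 0.10 and -0.03 in CAY10603. The list median was 0.08, 0.23 and 0.03, where that of all genes was 0.00, -0.00 and 0.01. Of the sirtuins, the NAD-dependent deacetylases, 5 of 7 passed 5 CPM. All 5 were lower in ACY1215 (median -0.32), while 3 of 5 were higher in shHDAC6 (median 0.04) and 2 of 5 in CAY10603 (median -0.06). SIRT2, which shares tubulin as a substrate with HDAC6, had log2 folds of 0.16, -0.44 and -0.37. SIRT1 had 0.04, -0.49 and -0.08, SIRT7 -0.32, -0.25 and -0.06, and SIRT5 -0.26, -0.32 and 0.01.

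Genes that act on or with class IIa enzymes were described from fixed lists, by count and median. Of 12 kinase genes 1 was past 1.5-fold in any pair: SIK1, which phosphorylates class IIa enzymes, was at 65.1 CPM in ACY1215 and 92.8 CPM in CAY10603, against 119.9 CPM in vehicle (log2 folds -0.88 and -0.37). That is 1 of 12 in ACY1215, where 7.76% of all genes were as much lower, so the count is near the background. SIK1 was at 84.3 CPM in shHDAC6 and 80.4 CPM in shControl, which itself lay 0.58 below vehicle on the log2 scale. PRKD1 had log2 folds of -0.17, 0.49 and 0.33 in shHDAC6, ACY1215 and CAY10603, PRKD2 0.36, 0.28 and 0.04, and SIK2 -0.06, -0.35 and -0.10. PRKD1 was at 12.6 CPM in ACY1215, 11.3 CPM in CAY10603, 12.5 CPM in shControl and 8.97 CPM in vehicle, so that its controls differed by a log2 fold of 0.48. The kinase medians were -0.01, -0.03 and -0.02 for shHDAC6, ACY1215 and CAY10603. The YWHA genes and SFN, of the same protein family, made a list of 7 with medians of -0.19, -0.05 and -0.00. In ACY1215 YWHAB was at 0.59, YWHAH at -0.57, YWHAG at 0.47 and YWHAE at -0.06. In CAY10603 YWHAE was at 0.27. YWHAB was at 286 CPM in ACY1215, 296 CPM in shControl and 189 CPM in vehicle, and 6 of the 7 genes were higher in shControl than in vehicle. The 14 nuclear partner genes had medians of -0.06, -0.22 and -0.03. CBX5, heterochromatin protein 1 alpha, was at 222 CPM in ACY1215 and 322 CPM in vehicle (-0.54). RFXANK had log2 folds of 0.52, -0.35 and -0.14 and ANKRA2 -0.12, -0.41 and -0.19 in shHDAC6, ACY1215 and CAY10603.

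Of 16 genes listed as MEF2 targets 5 passed 5 CPM, and these 5 were higher in ACY1215 than in vehicle (median 0.66), 3 of them past 1.5-fold against 5.86% of all genes. KLF6, a zinc finger transcription factor, had log2 folds of -0.31, 0.96 and 0.24 in shHDAC6, ACY1215 and CAY10603, HK2, a hexokinase, -0.34, 0.92 and 0.37, and JUN -0.15, 0.66 and 0.17. PPARGC1A, a metabolic coactivator, had -0.19, 0.04 and -0.10. These genes also separated the controls: all 5 were higher in shControl than in vehicle, with a median of 0.60 and the same 3 genes past 1.5-fold. The 5 scarcer genes of the list that entered the pooled fit were lower in ACY1215 than in vehicle. Their log2 folds were -0.82 for NR4A1, -1.59 for NR4A2, -0.28 for NR4A3, -0.31 for KLF4 and -0.65 for ENO3. The list of 10 thus showed no common direction. For these genes too the controls differed. Log2 folds of shControl over vehicle were -0.82 for NR4A1, -1.41 for NR4A2, -0.69 for NR4A3, -0.55 for ENO3 and 0.17 for KLF4. KLF6 was at 175 CPM in ACY1215, 167 CPM in shControl and 89.9 CPM in vehicle.

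HDAC6 partners and substrates gave 26 of 29 genes above 5 CPM, with medians of 0.13, 0.10 and -0.00 in shHDAC6, ACY1215 and CAY10603. In shHDAC6 1 of them was past 1.5-fold: PPP1CA, a catalytic subunit of the phosphatase that binds HDAC6, at 226 CPM in shHDAC6 and 133 CPM in shControl (log2 fold 0.77), where 2.82% of all genes were that much higher. In ACY1215 3 were at least 1.5-fold higher, among them PRDX1, a peroxiredoxin deacetylated by HDAC6 (0.83), and 3 at least 1.5-fold lower, among them the tubulin TUBA1B (-0.91) and FLOT1 (-0.85), against 5.86% and 7.76% of all genes. The FLOT1 level was 52.0 CPM in ACY1215, 58.1 CPM in shControl and 93.8 CPM in vehicle, so its controls differed by a log2 fold of -0.69. In CAY10603 0 of 26 were past 1.5-fold, against 1.04% of all genes. TUBA1A had an unadjusted p of 0.027 in the pooled fit (edgeR adjusted p = 1.00), and its controls differed by a log2 fold of 0.92. Alpha-tubulin genes are close in sequence, so the split of reads between them is uncertain.

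Polyamine genes, listed for HDAC10, were higher in 11 of 13 in ACY1215 (median 0.28), in 7 of 13 in shHDAC6 (0.02) and in 6 of 13 in CAY10603 (-0.04). The median of all genes was -0.00 in ACY1215. At 1.5-fold or more 2 of 13 were higher there and 0 lower, against 5.86% and 7.76% of all genes. SAT1, which acetylates spermidine and spermine, was at 465 CPM in shHDAC6 and 694 CPM in shControl, and at 1198 CPM in ACY1215, 723 CPM in CAY10603 and 671 CPM in vehicle. Its log2 folds were -0.58, 0.84 and 0.11. SMS, spermine synthase, had -0.10, 0.60 and 0.15, DHPS 0.47, -0.31 and -0.33, and SRM -0.04, 0.44 and -0.12. DHPS was at 29.4, 27.8 and 27.3 CPM in shHDAC6, ACY1215 and CAY10603, against 21.2 CPM in shControl and 34.4 CPM in vehicle, and all 3 lay between the controls. The 13 listed acetyltransferase genes had medians of 0.07, -0.40 and 0.01, and 9 of 13 were lower in ACY1215. Beside lysine acetyltransferases the list holds NAA10, NAA40 and NAA60, known as N-terminal acetyltransferases. In ACY1215 KAT2A was at -0.53, CREBBP at -0.53, KAT2B at -0.52 and NAA10 at 0.52. In the pooled fit 0 of the listed genes passed the edgeR test.

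Genes whose pattern was most like that of each member were sought over the 5 libraries by the Euclidean distance between log2 CPM profiles, each centred on its own mean. Nearest to HDAC6 were MACROD2 (distance 0.19), ZSWIM7 (0.19), NDUFA6 (0.21), SPTLC3 (0.23) and HDHD2 (0.24), where the median over all genes was 0.82. NDUFA6, a subunit of respiratory complex I, was at 125, 131 and 171 CPM in shHDAC6, ACY1215 and CAY10603, against 178 CPM in shControl and 187 CPM in vehicle. ZSWIM7 was at 23.6, 24.8 and 32.5 CPM in these interventions, against 36.6 CPM in shControl and 37.3 CPM in vehicle. Nearest to HDAC5 were PPARD, a nuclear receptor (0.13), and ADAMTS3, a procollagen protease (0.23), with a median over all genes of 0.72. HDAC4 lay nearest to BOLA3 and STT3B, HDAC7 to C6orf120 and CEBPZ, and HDAC9 to GSTM3 and PDE8A, at distances of 0.02 to 0.04. With 5 libraries and 10741 genes, the nearest genes lie far below the median by their selection. Small distances are also common among genes that vary little.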

How the data were processed

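Total RNA of TOV21G cells was isolated with Trizol and made into libraries with a kit that keeps strand, as the labels' protocols state. Expected counts, deposited as whole numbers, and the authors' FPKM, given to 2 decimals, stand side by side for each gene, per the file headers. The submitters' processing notes name hg19, RSEM 1.2.3 and edgeR without saying what each was used for. The labels name no aligner, annotation or strand setting. Of the rows, 28442 name a gene, and 2 blank ones were left out. Both columns headed DMSO, for counts and for FPKM, were taken for the vehicle library, since the labels hold no other. Columns of unknown samples numbered 0.

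Counts were used as deposited, with edgeR 4.0.16 in R 4.3.3: the quasi-likelihood test with robust estimation after TMM scaling, 13449 genes that reached 1 CPM in 2 or more libraries, Benjamini-Hochberg adjustment at 0.05, experiment type as a covariate, 2 residual degrees of freedom. Standard errors are the fold over the square root of F. The script was tested on simulated data. DESeq2 1.42.0, limma-voom (limma 3.58.1), RLE scaling, no filter, no covariate, 2-fold, another prior count, FPKM, the other control and leaving out each library were alternatives. Pairs of libraries carry no test: log2 folds of TMM-scaled CPM use a prior count of 2 and 10741 genes averaging 5 CPM or more, called at 1.5-fold. Intervals at 95% are exact Poisson for levels and exact binomial for ratios (scipy 1.17.1). Depth was 43498805 to 57442767 counts, so counting error is small but for HDAC10.

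The members and lists were chosen with earlier results of these data known. Of each list up to 4 genes above 5 CPM with the largest fold in any intervention were to be named, and all other zinc-dependent deacetylases (a gene that this rule selects is not reported here); for likeness the 5 nearest genes of HDAC6 and 2 of each other member above 5 CPM. EPCAM, TUBA1A, the scarcer MEF2 targets and the called gene of the knockdown and drug difference were named after their values were seen. Chromosomes and overlapping genes are from GENCODE 29 (GRCh38), so no coordinates are given. No sequences are shown.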

Additional observations from a re-analysis of the deposited data

Results flagged for a closer look

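In the test of the knockdown effect minus the drug effect 1 gene outside the class II deacetylases passed, GTF2IP1, a pseudogene near-identical to GTF2I (edgeR adjusted p = 0.0168). It was named after its value was seen. The row held 0 counts in shHDAC6, 2225 in ACY1215, 1937 in CAY10603, 4480 in shControl and 2019 in vehicle, and reads can be split between these copies. Without the filter on low counts 5 genes passed. None of the 6 deacetylases did.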

How the results depend on the processing

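No paired analysis was possible because the labels give no replicate numbers, and the numbers used here only name libraries in accession order. Experiment type, which the labels do give, is already a covariate, and without it the HDAC6 fold was -0.43. In the pooled fit 3 genes were called without control replicate 2 (vehicle) and 4 without repressed HDAC6 replicate 2 (ACY1215), and 0 under the other settings. With no filter on low counts the knockdown and drug difference called 5 genes, not 1. HDAC6, HDAC4 and HDAC9 kept their pooled sign in all 10 alternatives, with HDAC6 between -0.72 and -0.33. These alternatives are not independent: without vehicle only the hairpin pair sets the fold. Without shHDAC6 or without shControl only the drug libraries set it. HDAC4 lay between 0.059 and 0.14 and HDAC9 between 0.011 and 0.057. Both stayed within their standard errors in the main fit (0.16 and 0.13), so their sign carries little weight. The HDAC10 fold was 0.0044 with limma-voom and ranged from -0.23 to 0.25 with a library left out, HDAC5 from -0.20 to 0.31 and HDAC7 from -0.021 to 0.18. Genes past 1.5-fold numbered 539, 1463 and 112 for shHDAC6, ACY1215 and CAY10603, 1115 for CAY10603 over ACY1215 and 723 for shControl over vehicle. At 2-fold they were 74, 505, 29, 352 and 152, and with a mean of at least 1 CPM 1115, 2476, 460, 1999 and 1507. For CAY10603 the other control gave 575.

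With the other control HDAC4, HDAC5 and HDAC9 had -0.018, -0.28 and -0.14 in shHDAC6, 0.29, 0.67 and 0.22 in ACY1215 and 0.15, 0.037 and 0.20 in CAY10603, where HDAC6 had 0.0066. With FPKM HDAC4, HDAC7 and HDAC9 had -0.15, -0.10 and -0.10 in ACY1215, where the median of all genes was -0.10, and HDAC7 had -0.19 in CAY10603, where it was -0.04. The cause was not tested. RLE scaling and a prior count of 0.5 moved no value past its interval, and TPM left the HDAC6 ranks as they were. Depth limits HDAC10, whose intervals span 0 in every pair.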
